A study of Mus musculus with 4 samples.

Results

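Genes named for the cell division cycle were examined in the dentate gyrus, the hippocampal subfield whose principal neurons, the granule cells, no longer divide. Members were chosen by name from the array's annotation: probe sets with a single gene symbol that starts with Ccn (cyclins), Cdk (cyclin-dependent kinases), Cdkn (their inhibitors), Mcm (minichromosome maintenance), Cdc (cell division cycle) or E2f, followed by the letter and digits of those families, with Ccnd2 and Cdkn1a left out. The rule found 83 probe sets for 66 genes, of 8251 genes with a probe set of their own. The samples were total RNA from the dentate gyrus of young male C57BL/6J mice that were handled by the experimenter and given no other treatment. There were 4 samples with 1 array each, taken 1, 2, 4 and 6 h after the last shock of a parallel group of mice. How many mice make up a sample is not stated in the labels, and no sample of shocked mice was used here. The hours are thus times of extraction in unshocked mice, and an hour and its single array cannot be told apart.

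A dividing cell passes from G1 through DNA replication to mitosis under kinases that are active only with a cyclin partner, and inhibitors of the Cdkn families hold these kinases back. E2F factors, restrained by the retinoblastoma protein, switch on replication genes, among them the Mcm genes, whose products form the helicase loaded at replication origins. Neurons leave this cycle for good, yet several proteins that carry these names work in them: Cdk5 is a neuronal kinase with its own activators, other kinases of the family act in transcription, and Cdc42 shapes dendritic spines. The dentate gyrus also keeps a zone of neural progenitors that divide in the adult, and glial precursors and vascular cells can divide as well. In this bulk tissue, fewer cells of a type and less RNA per cell cannot be told apart.

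Values are array intensities in the order 1, 2, 4 and 6 h. An intensity under 38.3, the 20th percentile of all values, was set to that floor before log2 was taken, and genes entered the tests (were past the filter) from a mean log2 intensity of 7.41 upward, the 40th percentile of the gene means and an intensity of 170. The arrays had median intensities of 186, 187, 213 and 185 and a common trimmed mean of 499.9, so they appear to have been scaled as wholes. All 6 granule cell markers with a probe set were past the filter, among them Calb1 (2542, 3026, 2506 and 2453), the calbindin gene of mature granule cells. Of the 66 members, 44 were past the filter (66.7%), where by its definition 4951 of all 8251 genes were, and 12 had at least 1 value under the floor. The share of all genes with such a value was not counted. Because a mean over the same arrays decides who passes, a gene high on 1 array can enter through it.

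**Figure D1:**
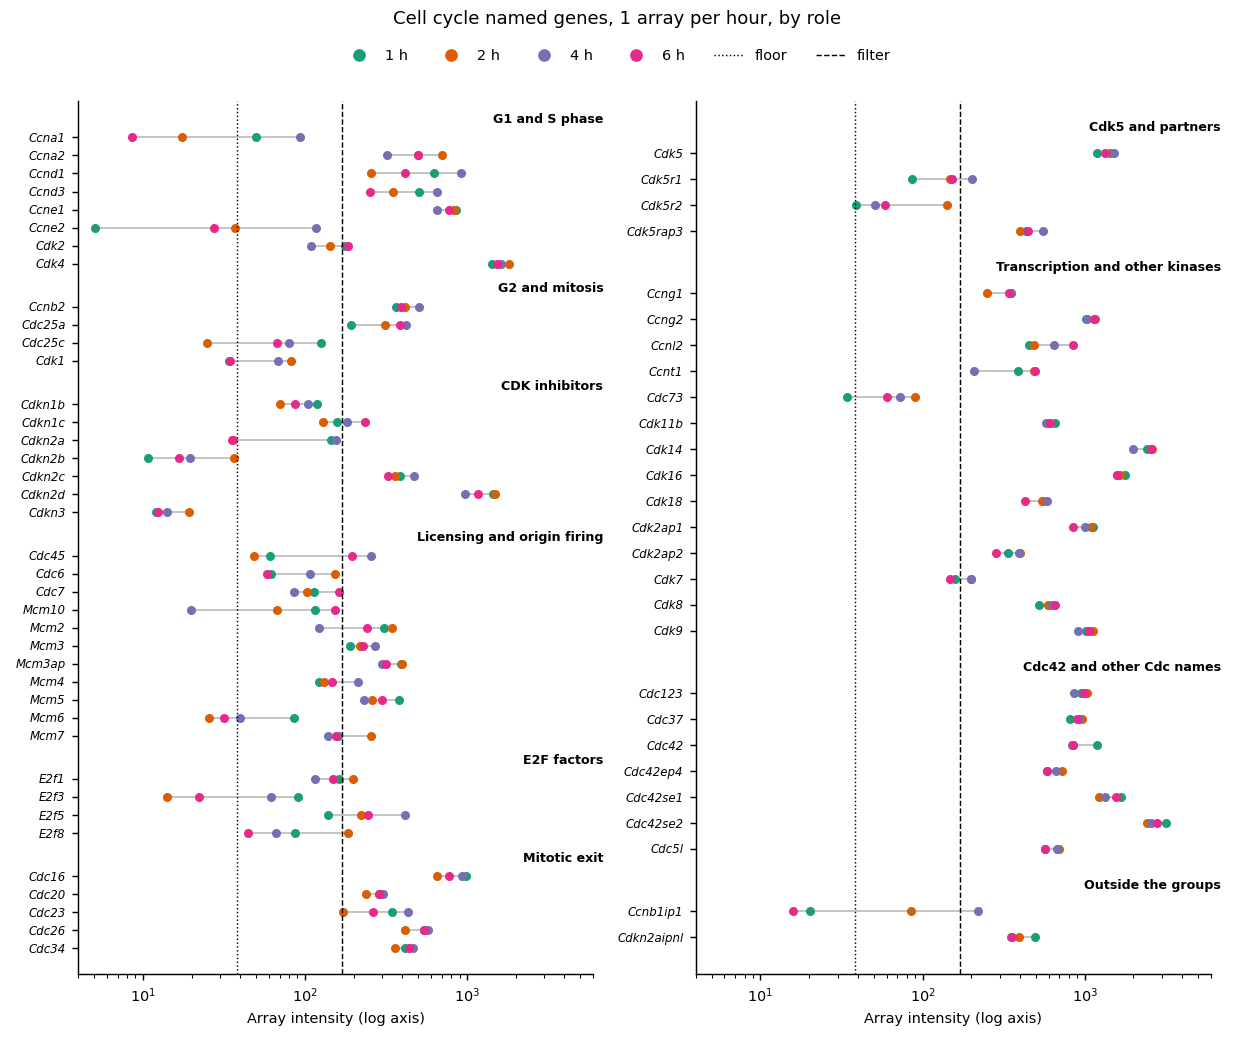
Intensity of each member on the 4 arrays, on a log axis, with genes grouped by role; each point is 1 array, the dotted line is the floor at 38.3 and the dashed line the filter at 170. Genes of Cdk5, transcription and Cdc42 groups lie mostly right of the filter with close points, and points of replication, E2F and mitotic genes lie on both sides of it.

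No member had a called slope on the hour. With limma, a straight line of log2 intensity on the hour was fitted for 4951 genes. It was called (Benjamini-Hochberg adjusted p under 0.05 over these genes) in 0 of 44 members, and in 0.0% of all genes tested. The smallest adjusted p over all genes tested was 0.9999, so with 4 single arrays this test could call few genes. A straight line can also miss a high or low value at a middle hour. The 0 calls thus do not show that the members' levels were steady. At an unadjusted p under 0.05 the line went upward in 1 member, where 1.09% of all genes did, and downward in 0 members, where 0.929% did. That member was Ccnl2, which encodes cyclin L2, a partner of splicing-related kinases. It read 451, 486, 649 and 848, higher at each later hour, with a slope of 0.19 ± 0.07 log2 per h (SE, n = 4 arrays; limma adjusted p = 0.9999). Slopes were positive in 18 members and negative in 26, with a median of -0.01 log2 per h against -8.3e-05 over all genes tested. The next steepest upward slopes were 0.18 ± 0.10 for Cdc25a and 0.17 ± 0.12 for E2f5, and the steepest downward were -0.14 ± 0.13 for Mcm2, -0.12 ± 0.10 for Ccnd3 and -0.09 ± 0.06 for Cdkn2d (SE, n = 4 arrays each; limma adjusted p = 0.9999 for each).

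Members named for the division machinery (cyclins and kinases of G1, S, G2 and mitosis, inhibitors, licensing factors, E2F factors and mitotic exit factors) lay on both sides of the filter. Of these 39 genes, 21 were past the filter (53.8%), near the 60% of all genes, against 22 of 25 (88%) in the groups of Cdk5, of transcription and other kinases and of Cdc42 and other Cdc names. At least 1 value under the floor occurred in 10 of the 39 and in 1 of the 25. Without the share of all genes, neither count can be read as an excess or a lack. Array intensities do not compare the amount of 1 gene with another, so these shares describe what the probe sets read. No test was made of the difference.

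Among G1 and S phase cyclins and kinases, 5 of 8 were past the filter, and the cyclins D1, D3 and A2 each differed more than 2-fold between hours. Ccnd1, the cyclin D1 that opens G1 with Cdk4 or Cdk6, read 623, 255, 923 and 417, a 3.62-fold span with the low value at 2 h and the high one at 4 h. A second Ccnd1 probe set read 198, 246, 141 and 231 and was lowest at 4 h, so the 2 probe sets ran in opposite directions.

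Ccnd3, the related cyclin D3, read 506, 352, 656 and 253 and spanned 2.59-fold, again with its highest value at 4 h. Ccna2, the cyclin A2 of S phase and G2, read 498, 706, 322 and 498, with 2 h high, 4 h low and the 1 h and 6 h arrays alike.

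Cdk4, the catalytic partner of D cyclins, read 1428, 1820, 1612 and 1529 (mean 1597 ± 166, SD, n = 4), and its second probe set, highest at 6 h instead of 2 h, read 271, 256, 297 and 337. Ccne1, the cyclin E1 that activates Cdk2 at the entry to S phase, read 858, 830, 652 and 774 (mean 778 ± 91.4, SD, n = 4). Below the filter lay Cdk2 itself, at 177, 144, 109 and 184, and the cyclin genes Ccna1 and Ccne2, whose values were under the floor on 2 and 3 of the 4 arrays. A second Cdk2 probe set read 15.5, 44.9, 87.2 and 13.6 and was highest at 4 h, where the first was lowest.

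The G2 and mitosis group had 4 members with 2 past the filter, both highest at 4 h. Ccnb2, a B-type cyclin of mitosis, read 364, 414.5, 506 and 389.5, with the 4 arrays within 1.39-fold. Cdc25a, a phosphatase that activates cyclin-dependent kinases, read 194, 313, 418 and 387.5.

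Its 1 h value lay below the other 3, and the span was 2.16-fold. A second Cdc25a probe set was under the floor on all arrays but that of 2 h (18.8, 76.6, 20.6 and 30.8). Cdk1, the kinase that drives entry into mitosis, read 33.8, 82.4, 68.1 and 34.6. It was thus under the floor at 1 and 6 h and under the filter on every array, and Cdc25c, the phosphatase that switches Cdk1 on, read 126, 24.8, 80.3 and 67.1. A second Cdc25c probe set read 27.5, 63.4, 115 and 80.9 and was lowest at 1 h, where the first was highest.

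Of 7 inhibitor genes, 3 were past the filter and none of those spanned over 2-fold. Cdkn2d, an inhibitor of Cdk4 and Cdk6 that is well known from postmitotic neurons, read 1440.1, 1482, 967 and 1164 (mean 1263 ± 243, SD, n = 4). Its values were lower at 4 and 6 h than at 1 and 2 h.

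Cdkn2c, of the same Ink4 family, read 384, 357, 468 and 324. Cdkn1c, an inhibitor of the Cip/Kip family that takes part in cell cycle exit during development, read 158, 129, 182 and 235. These differences had no replicate at any hour to be set against.

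The other 4 inhibitor genes read low. Cdkn2a, the locus of an Ink4 inhibitor and of the Arf protein, read 146, 35.8, 157 and 35.3, so that 2 arrays lay above the floor and 2 below it. Cdkn1b, the main Cip/Kip inhibitor of G1 kinases, read 118, 70.3, 105 and 87.5, and its second probe set was under the floor at every hour (32.9, 24.3, 25 and 20.6). Cdkn2b (10.7, 36.5, 19.5 and 16.7) and Cdkn3 (12.1, 19.3, 14.2 and 12.4), a phosphatase that acts on cyclin-dependent kinases, were under the floor at every hour, as 395 of 8251 genes (4.79%) were.

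Licensing and origin firing genes had 5 of 11 members past the filter, and 4 of these 5 had their lowest value at 4 h, the hour that held the lowest value of 29.2% of all genes tested, and of 46.9% once the arrays were scaled to their medians. Without Mcm3ap, whose product acts in mRNA export, the count was 3 of 4. Mcm2, a subunit of the helicase, read 306, 346, 122.5 and 243 and was at 4 h below every other array (2.82-fold span). Mcm5, another subunit, read 379.8, 260.4, 231 and 301, with 1 h high and 4 h low. Its second probe set read 174, 162, 146 and 239.9, also lowest at 4 h.

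Mcm7 read 160.4, 256, 139 and 156, where the 2 h array stood above the other 3. Mcm3ap read 394, 396.5, 298 and 315.5. The exception was Mcm3, at 189.6, 219, 269.9 and 229.9, with its highest value at 4 h, while a second Mcm3 probe set under the filter read 61, 119, 22 and 66.5 and was lowest at 4 h. Over all 13 probe sets of the group, 8 were lowest and 3 highest at 4 h.

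Members under the filter in this group did not share one course. Cdc45, which activates the loaded helicase, read 61.3, 48.9, 254 and 196.5, higher at 4 and 6 h. Mcm10, another initiation factor, read 115, 67.6, 19.8 and 153. Mcm6 read 86.3, 25.7, 39.9 and 31.5 and was above the floor at 1 and 4 h, and Mcm4 read 123, 130.4, 213 and 146.

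Cdc6, which loads the helicase, read 62.1, 153, 108 and 58.3, highest at 2 h. Cdc7, the kinase that fires origins, read 114, 103, 85.4 and 162. Of the 10 markers of neural progenitors and immature neurons past the filter, 3 were lowest at 4 h and 3 were highest there, shares near those of all genes. The lowest were Neurod1, a factor of young granule neurons (499, 749.9, 447 and 549), Sox2, a transcription factor of neural stem cells (1355, 1350.0, 624 and 1033), and Fabp7, a lipid-binding protein of radial glia (1673, 2381, 880.5 and 1182). The highest were Sox4, a factor of immature neurons (753, 617.7, 1070 and 687), Nes, the nestin gene of neural stem cells (265, 323, 335 and 79.4), and Tubb3, a neuronal tubulin gene (8076, 7034.5, 8770.1 and 7344). Slopes on the hour were positive in 2 of the 10 markers and negative in 8, and 0 were called with limma. At an unadjusted p under 0.05 the line went downward in 2, Nes and Fabp7, where 0.929% of all genes tested did. Their slopes were -0.33 and -0.18 log2 per h (limma adjusted p = 0.9999 for each).

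Over the whole list of 16 such markers the summed intensity was 20682, 21861, 20388 and 18823. Most of each sum came from Tubb3, Ncam1 and Stmn1, so the sums say little of the dimmer markers. None of the 16 markers was under the floor on all 4 arrays, and their part in the Mcm values was not tested.

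**Figure D2:**
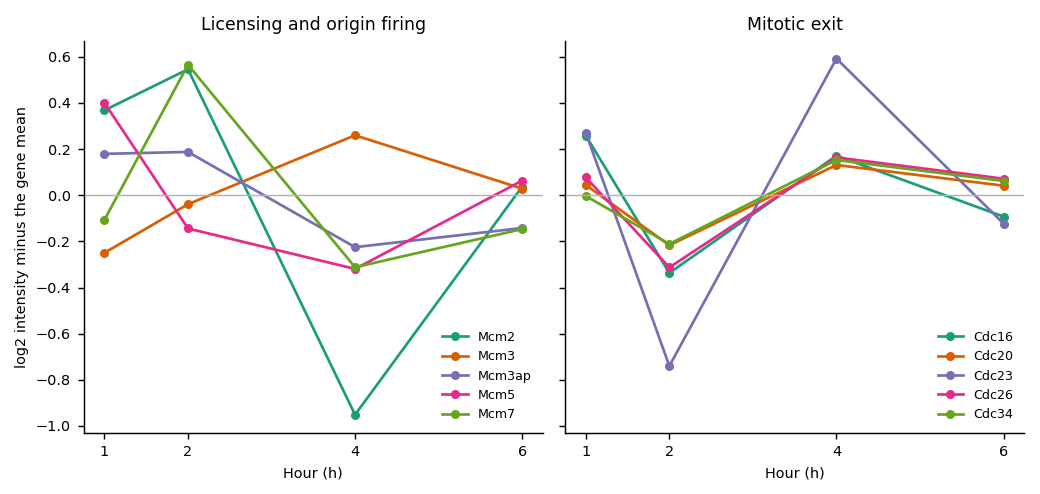
log2 intensity of each gene minus its own mean over the 4 arrays, plotted against the hour, for members past the filter in the licensing group (left) and the mitotic exit group (right); each point is 1 array. At 4 h all licensing genes but Mcm3 are at their lowest, and at 2 h all 5 mitotic exit genes are.

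The promoters of these genes are shown because several hold letters of the E2F binding site. RefSeq promoter windows (GRCm38.p6, 250 bases before to 50 after the start) were found for 56 of the 66 members. The strings TTTCCCGC and TTTGGCGC, read on both strands and not overlapping each other, occurred in 9 of the 66 windows of these 56 genes (13.6%) and in 514 of 32851 windows in all (1.56%). The 9 genes were Cdc25a, Cdc6, Cdk2, Cdkn2a, E2f3, Mcm3, Mcm5, Mcm6 and Mcm7, of which 5 belong to the licensing group. The stretches below run 5′ to 3′ on the gene's strand, with these letters in capitals.
Mcm3, chr1:20820263-20820332, minus strand: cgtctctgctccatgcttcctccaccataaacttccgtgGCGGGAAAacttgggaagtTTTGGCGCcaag
Mcm5, chr8:75109339-75109398, plus strand: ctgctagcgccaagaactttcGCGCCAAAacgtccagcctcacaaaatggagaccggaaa
Mcm6, chr1:128359736-128359825, minus strand: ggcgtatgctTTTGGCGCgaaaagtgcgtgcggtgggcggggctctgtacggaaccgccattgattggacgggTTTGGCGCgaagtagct
Mcm7, chr5:138172004-138172063, minus strand: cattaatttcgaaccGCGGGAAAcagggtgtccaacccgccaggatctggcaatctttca
A letter match is a description and not a bound site. The 4 of these 9 genes past the filter had their highest values at different hours: 4 h for Mcm3 and Cdc25a, 1 h for Mcm5 and 2 h for Mcm7.

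Promoters of mitotic genes often pair a CCAAT box with the cell cycle homology element TTTGAA. Read on both strands, TTTGAA occurred in 13 of 66 member windows (19.7%) and in 17.9% of all windows, and CCAAT in 36 member windows (54.5%) and 37.4% of all windows. The stretches of Cdk1 and of Cdc20, the mitotic activator described next, show both sets of letters in capitals.
Cdk1, chr10:69352913-69353002, minus strand: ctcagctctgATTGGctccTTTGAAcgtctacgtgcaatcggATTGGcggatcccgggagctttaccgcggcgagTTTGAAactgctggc
Cdc20, chr4:118437334-118437402, minus strand: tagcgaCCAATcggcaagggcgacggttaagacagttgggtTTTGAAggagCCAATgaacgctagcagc
Cdk1 read under the filter on every array, as given above, and Cdc20 was past it.

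Of 4 E2F genes, 1 was past the filter. E2f5, a member that represses together with retinoblastoma-related proteins, read 139, 222, 416 and 244, a 2.99-fold span with 4 h high and 1 h low. E2f1, an activator of S phase genes, read 162, 198.5, 115 and 149, with a mean under the filter. Its second probe set was under the floor at every hour (12.4, 19.2, 17.6 and 24.4).

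The activator E2f3 (91.2, 14.2, 61.9 and 22.2) was under the floor at 2 and 6 h. E2f8, an atypical repressor, read 87.0, 185, 66.2 and 44.7, with 2 h high. A second E2f8 probe set read 149.9, 64.7, 16.6 and 116, highest at 1 h instead.

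All 5 genes of the mitotic exit group were past the filter, and all 5 had their lowest value at 2 h, the hour that held the lowest value of 23.2% of all genes tested. The anaphase promoting complex, a ubiquitin ligase that ends mitosis and that also works in neurons, was represented among the members by 3 subunits. Other subunits past the filter, such as Anapc1, Anapc2, Anapc4 and Anapc5, lie outside the naming rule. Their lowest hours were not examined, so the count does not describe the whole complex. Cdc16 read 988, 654, 930.2 and 775, and Cdc26 read 542, 413.5, 575 and 539.8. Cdc23 read 345, 171, 431 and 262, a 2.52-fold span.

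Its second probe set lay near the floor (36.4, 43.6, 31.1 and 49.7) and under it at 1 and 4 h. Cdc20, the activator of this complex, read 287, 239.5, 305 and 286.5. Cdc34, a ubiquitin-conjugating enzyme of the related SCF ligases and not of this complex, read 417, 361, 465 and 436.5. A second Cdc34 probe set under the filter read 78.5, 126.5, 53.5 and 27.4 and was highest at 2 h. Over all 7 probe sets of the group, 5 were lowest and 1 highest at 2 h. At 2 h the 5 genes lay between 0.28 and 0.99 log2 below the mean of the other arrays (-0.28 for Cdc34 and -0.99 for Cdc23), and in 4 of them the highest value was at 4 h.

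Of Cdk5 and its partners, 2 of 4 were past the filter and neither spanned over 2-fold. Cdk5, the kinase of neuronal migration and synaptic function, read 1199.9, 1427, 1514 and 1345 (mean 1371 ± 134, SD, n = 4), with all 4 arrays within 1.26-fold. The probe sets of its activators read lower. Cdk5r1, which encodes the main activator, read 86.5, 147, 202 and 151, and Cdk5r2, the second activator, read 39.0, 141, 50.7 and 58.5.

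Both were under the filter, with 1 h the low array in each. Cdk5rap3, whose product binds the Cdk5 activator, read 436, 397.5, 550.1 and 447. Its second probe set read 276, 262, 381 and 59.9, so both were highest at 4 h, but only the second was low at 6 h.

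Among transcription and other kinases and cyclins, 13 of 14 were past the filter and 1 spanned over 2-fold. That gene was Ccnt1, which encodes cyclin T1 of the elongation factor P-TEFb, at 391, 489, 208 and 491, with 4 h below the other 3 arrays. Its kinase partner Cdk9 read 1027.5, 1128.5, 906 and 1058, also lowest at 4 h but within 1.25-fold. Cdk14 (2440.5, 2619.9, 1997 and 2585.5), Cdk16 (1773, 1662, 1595 and 1584) and Cdk18 (551, 549, 585 and 429.9) belong to a branch of the family expressed in postmitotic cells.

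A second Cdk14 probe set under the filter read 90.2, 75.7, 132.5 and 60.8 and was highest at 4 h, the hour at which the first was lowest. Ccng2, a cyclin linked to cell cycle arrest, read 1024, 1151, 1034 and 1139.7, within 1.12-fold. Ccng1, a target of p53, read 352.5, 251.5, 354 and 340.5, with 2 h below 3 close values.

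Cdk8 of the Mediator complex (521, 594, 629.8 and 659.8) was higher at each later hour, and Cdk16 and the Cdk2-binding protein gene Cdk2ap1 (1119.8, 1088, 999.5 and 845.5) lower at each. Values ran upward at every step in 2 members and downward in 2, where 2.65% and 2.4% of all genes tested did. Cdk11b (656, 605, 580.2 and 614), Cdk7 (159.6, 200.0, 200.0 and 148), the kinase of the factor TFIIH, and Cdk2ap2 (336, 400.0, 394 and 283) spanned under 1.5-fold. Other Cdk11b probe sets, under the filter, read 138, 142, 159 and 133, and 24.7, 145, 209 and 112. Both were highest at 4 h, where the one used was lowest. Cdc73, of a complex that travels with RNA polymerase, was the member under the filter (34.1, 89.5, 72.3 and 60.2).

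All 7 genes of Cdc42 and of other Cdc names with work outside division were past the filter, and none spanned over 2-fold. Cdc42, the small GTPase of actin remodelling, read 1195, 848, 837 and 845, with 1 h above 3 close values. Its small effectors Cdc42se1 (1673, 1223, 1329 and 1561) and Cdc42se2 (3170.1, 2422, 2562 and 2815) were also highest at 1 h, and all 3 differed by at most 1.43-fold. The effector Cdc42ep4 read 588, 723, 669 and 586, highest at 2 h.

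Cdc37, the cochaperone that brings kinases to Hsp90, read 813, 969.7, 929 and 893. Cdc5l, a splicing factor, read 568, 692, 675 and 570.1, and Cdc123, an assembly factor of translation initiation, read 957, 1038.5, 865 and 987. Outside these groups, Ccnb1ip1, a meiotic crossover factor, read 20.2, 84.9, 218.5 and 15.9, above the floor at 2 and 4 h. Cdkn2aipnl read 491.5, 391, 354 and 356.

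A span over 2-fold was counted in 8 of 44 members, where 15.0% of all genes tested had one: Ccna2, Ccnd1, Ccnd3, Ccnt1, Cdc23, Cdc25a, E2f5 and Mcm2. The median SD of log2 intensity over the 4 arrays was 0.21 for the members and 0.25 for all genes tested. All 8 lay among the 22 members with a mean log2 intensity between the filter and 8.97 (an intensity of 500), where 28.1% of all genes spanned over 2-fold.

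Of the 22 members with a higher mean, 0 did, where 7.58% of genes with a mean log2 intensity between those of 500 and 1000 and 3.27% of those above did. Without the 4 h array, 3 members (Ccnd1, Cdc23 and Cdc25a) spanned over 2-fold, of 46 past the filter then. The share of all genes tested that did so then was 7.41%, so the count fell along with that of all genes. Of 8 choroid plexus markers, 3 were past the filter. Over all 8, 6 had their highest value on the 4 h array, where 34.6% of all genes had theirs, among them Ttr, the thyroid hormone carrier (81.3, 234, 2408 and 191). The others were highest at 2 h, among them the growth factor gene Igf2 (1849, 4402, 2955 and 2521). The summed intensity of the 8 was 2586, 5535, 6729.7 and 3426, and without Ttr it was 2504, 5302, 4322 and 3235, highest at 2 h. None was under the floor on all 4 arrays, and their part in the members' values was not tested.

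**Figure D3:**
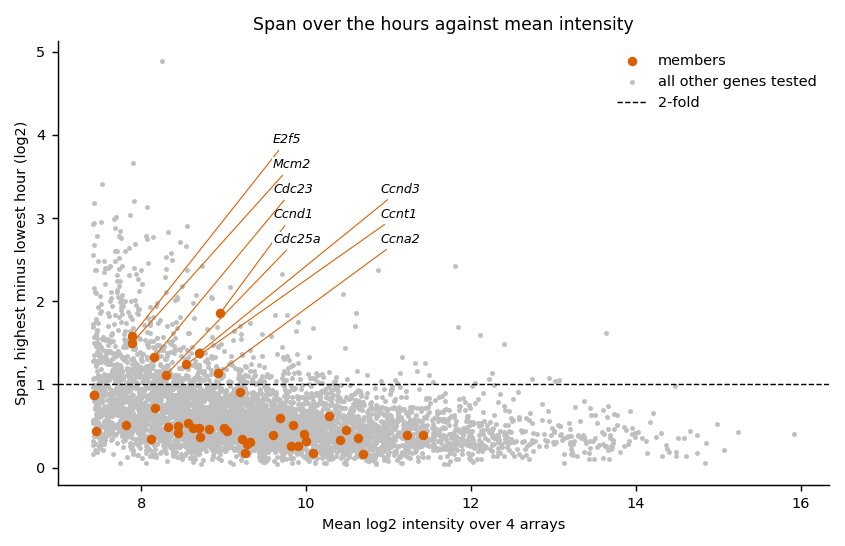
Span between the highest and lowest hour (log2) against the mean log2 intensity over the 4 arrays, for the 44 members past the filter (orange) and all other genes tested (grey); the dashed line is 2-fold. The 8 named members above the line all lie at means under 9, at the dim end of the genes tested.

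Of the 44 members past the filter, none stood more than 2-fold above, or more than 2-fold below, all other hours at any of the 4 hours. Among all genes tested such an excess was found in 0.0808% at 1 h, 0.182% at 2 h, 0.364% at 4 h and 0.121% at 6 h, and such a deficit in 0.667%, 0.626%, 0.97% and 0.646%. Of the 22 members under the filter, 5 stood over 2-fold above all other hours with values under the floor set to it: Mcm6 at 1 h, Cdk5r2 and E2f8 at 2 h, and Ccnb1ip1 and Ccne2 at 4 h. The shares above are of genes past the filter. The share of all genes under the filter was not counted, so this count cannot be read as an excess. The highest value of a member fell at 1 h in 10 genes, at 2 h in 15, at 4 h in 15 and at 6 h in 4, against 23.1%, 23.2%, 31.4% and 22.3% of all genes. The lowest value fell at these hours in 11, 11, 14 and 8 members, against 24.5%, 23.2%, 29.2% and 23.1%. Scaling to the array medians moves the median of all genes at 4 h to -0.17 log2 against the other hours, and so lowers members and other genes there alike. Under it the highest value fell at these hours in 13, 13, 8 and 10 members, against 27.9%, 27.6%, 16% and 28.5% of all genes. The lowest then fell in 8, 9, 21 and 6 members, against 18.5%, 17.6%, 46.9% and 16.9%.

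Of the 16 members with several probe sets, 4 had 2 of them past the filter: Ccnd1, Cdk4, Cdk5rap3 and Mcm5. The probe sets were highest at the same hour in 1 of these 4 and lowest at the same hour in 1, where among all 689 genes with several probe sets past the filter 30.2% and 31.2% did so. Those of Ccnd1 and Cdk4 peaked at different hours, those of Mcm5 were both lowest at 4 h, and those of Cdk5rap3 were both highest at 4 h.

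**Figure D4:**
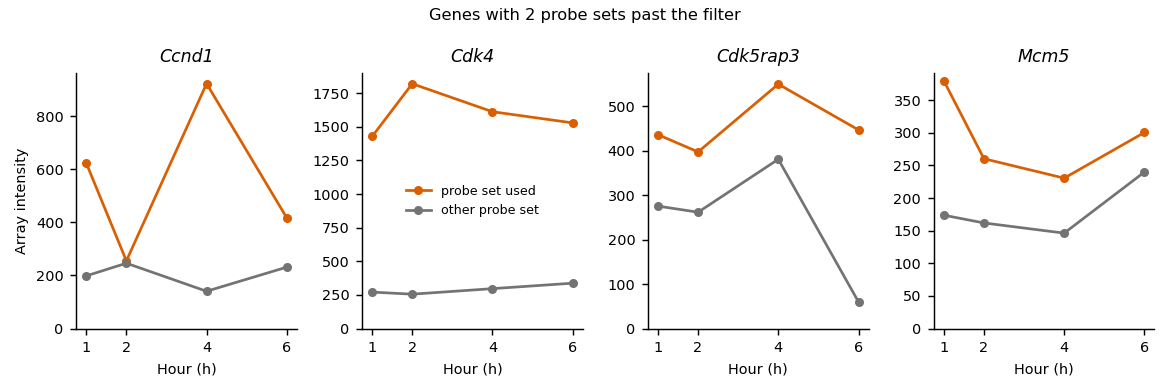
Array intensity against the hour for the 4 members with 2 probe sets past the filter; each line is 1 probe set and each point 1 array, with axes starting at 0. The Ccnd1 probe sets lie far apart at 4 h (923 and 141), and both Mcm5 probe sets are lowest there.

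Other genes of the division cycle were listed by function and not by the naming rule. Of 50 with a probe set, 18 were past the filter (36%, against 60% of all genes), 0 of the 18 had a called slope with limma, and 0 had an unadjusted p under 0.05. Their slopes were positive in 12 and negative in 6, and 4 spanned over 2-fold. Among those with high means were Stmn1, a microtubule regulator also of young neurons (3166.5, 3372.5, 3064 and 2510.3), and the spindle checkpoint gene Bub3 (1206, 1191.7, 1193 and 1239.5).

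Orc6 of the origin recognition complex read 769, 738, 882 and 736, and Tfdp1, the dimer partner of E2F factors, read 790.4, 887.5, 655 and 828. The 4 that spanned over 2-fold were Tk1 (309, 181, 105 and 404), Pola2 (205, 372, 182 and 321), the centromere histone gene Cenpa (205, 260.5, 483 and 312) and the licensing factor gene Cdt1 (95.9, 244, 217 and 173.5). Bub1, Kif11 and Rbl1 were under the floor at every hour. Of the 18, 6 were lowest at 4 h (Tk1, Pola2, Orc5, Tfdp1, Plk1 and Foxm1) and 5 highest there (Mki67, Orc4, Orc6, Cenpa and Smc4), shares near those of all genes, with genes of DNA replication in both sets.

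Some markers of cells that could divide in this tissue were past the filter for each cell type listed. Of the neurogenesis list, 10 of 16 were past it and 4 had at least 1 value under the floor. Those past it included Dcx of migrating young neurons (340.3, 528, 419 and 378.5). All 4 oligodendrocyte precursor markers with a probe set were, including the growth factor receptor Pdgfra (1223, 817, 805 and 979), and their summed intensity was between 3556 and 3915. Of the endothelial and mural list 5 of 12 were past the filter, and of the microglia list 8 of 9, with summed intensities of 2533 to 3497 and 7892 to 8781.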

How the data were processed

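The authors' deposited table holds 1 intensity per probe set and array on a linear scale, for 12488 probe sets. For the scanner and the software no label gives a name, and the scaling is inferred from the values. From this deposited intensity, 66 control probe sets, 1193 with no gene and 396 with several genes were left out, and 10833 probe sets of 8251 genes were kept under the platform annotation's symbols; all 66 members matched RefSeq by gene ID. Each gene took its brightest probe set, by mean log2 value. Slopes on the hour came from limma 3.58.1 under R 4.3.3, with moderated variances that follow intensity (eBayes), over all 4951 genes past the filter; the fit was tested on simulated data. Each hour has 1 array, whose number limits the precision. The p-values and SEs of slopes measure scatter about a line over 4 arrays that nothing shows to be separate mice. For each gene that scatter was drawn toward genes of like intensity (10.4 prior degrees of freedom), so it is only partly the gene's own. The 4 samples form 1 group of handled controls.

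The members, gene lists, tests and alternatives were chosen with earlier results of these data known. Any member could be named, with values at every hour for those spanning over 2-fold, for up to 4 bright members of a role group and for probe sets that disagree; values of the remaining members were added after they were seen. Alternatives were array median scaling, quantile normalization, another floor (30th percentile) or an added constant of 50, the mean of all probe sets, no filter or one at the 60th percentile, and leaving out each array.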

Additional observations from a re-analysis of the deposited data

Results flagged for a closer look

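In 2 of the 44 members past the filter, 1 array stood apart from the other 3, as judged by its gap relative to the whole range on the log2 scale (Dixon's ratio, at its critical value for 4 samples). Chance alone flags about 1 in 20 such groups. Cdc42 read 1195 at 1 h against 837 to 848 on the other arrays, a ratio of 0.96. Ccng1 read 251.5 at 2 h against 340.5 to 354, a ratio of 0.89.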

How the results depend on the processing

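The count of 0 members with a called slope was the same under all 11 alternatives. Of all genes tested, 13 were called without the 1 h array, 9 without the 6 h array and 0 under the other alternatives. As so few genes were called at all, the unchanged 0 does not show that the members were steady. The count of 8 members spanning over 2-fold was 23 of 66 with no filter on low values and 3 of 28 with the filter at the 60th percentile, was between 7 and 9 under the other 5 settings with all 4 arrays, and ran from 3 to 7 when 1 array was left out, with 3 without the 4 h array. Of all genes tested, 14.97% spanned over 2-fold in the main setting, 32.14% with no filter and 6.392% with the filter at the 60th percentile. With 1 array left out this share ran from 7.413%, without the 4 h array, to 10.44%, without the 6 h array. The member counts thus moved in the same direction as the share of all genes under these settings. The 44 members past the filter became 28 at the 60th percentile and ran from 42 to 46 when 1 array was left out. The median slope of -0.01 log2 per h ran from -0.011 to 0.037 when 1 array was left out, with 0.037 without the 6 h array, and the slope of Ccnd3, which ran from -0.177 to 0.171 when 1 array was left out, changed sign there; the cause was not tested. Without the 6 h array the slopes of Mcm2, E2f5, Cdc25a and Cdkn2d were -0.48, 0.52, 0.35 and -0.21, and without the 1 h array that of E2f5 was 0.03 and that of Cdc25a 0.08 log2 per h. Of 62 recomputed slopes of the 6 named genes, 61 kept their direction and none was called. In counts added after the data were seen, the mitotic exit genes lowest at 2 h were 5 of 5 under each alternative that keeps the 2 h array, except 3 of 4 when all probe sets of a gene are averaged and 3 of 3 at the 60th percentile, where fewer genes are past the filter. The licensing genes lowest at 4 h were 3 of 4 without the 2 h array, 6 of 11 with no filter and 4 of 5 under the other alternatives that keep the 4 h array, except that at the 60th percentile 0 licensing genes were past the filter. Most alternatives could not change these lowest hours. Leaving out another array, a higher floor and an added constant keep the order of values well above the floor. Median scaling lowers all genes at 4 h. The sameness of these counts is thus no separate support for either pattern. Results other than the number past the filter were added for the 60th percentile after the data were seen. No paired analysis was possible because the samples form 1 group. Signal near the floor limits what can be said of the 22 members under the filter.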
